A study of Gallus gallus with 16 samples.

Results

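A set of 73 spots on a chicken neuroendocrine cDNA microarray rose late in the embryonic development of the pituitary gland, with the largest step of their time course between embryonic days 14 and 17. They were chosen from 7103 of 7200 spots, those with at least 3 values at every age, by 2 conditions on the age means of the deposited log ratios. The mean at day 17 had to exceed that at day 10 by 0.6 or more, and the step from day 14 to day 17 had to be larger than the steps from day 10 to day 12 and from day 12 to day 14. Of 286 spots that met the first condition, 73 met the second, while 109 had their largest step between days 12 and 14 and 104 between days 10 and 12. Because the age means chose the spots, the rise itself is a description and its tests are read only beside the share called of all spots.

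The study measured pituitary glands of chicken embryos, with no treatment named in the labels, taken from the incubator on embryonic day 10 (E10), 12 (E12), 14 (E14) or 17 (E17). There were 4 biological replicates for each day and 1 array for each replicate. Glands were pooled within a replicate, 16 embryos giving 1 pool on day 10, 8 on day 12, 4 on day 14 and 2 on day 17. Amplified sample RNA, in Cy3, shared each slide with a reference in Cy5 to which all 16 samples contributed equally. Every value below is a deposited log ratio on 1 array or the mean of such values, and a difference is a difference between log ratios.

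The pituitary gland makes the hormones that govern growth, metabolism, stress and reproduction. Its anterior lobe holds one cell type for each main hormone, among them thyrotrophs (thyrotropin), somatotrophs (growth hormone) and lactotrophs (prolactin). In the chick these types arise one after another during incubation, with somatotrophs and lactotrophs among the last, and glucocorticoids are known to promote the appearance of growth hormone cells in chick embryonic pituitary tissue. The annotation used here names 54 of the 7200 spots, all with the same gene symbol and none of them among the 73. No late-rising spot can therefore be given a gene, a cell type or a sequence. The glands were measured whole, so more cells of a type and more RNA per cell cannot be told apart.

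The deposited arrays were already centred and scaled. Each array gave values for 7023 to 7194 spots, array medians lay between -0.023 and 0.036, and every array had an SD between 0.2612 and 0.2614. The labels give both dyes but not which was divided by which, so the direction, sample over pool, is likely rather than stated. It follows the order of the sample titles and the design: with a pool of equal parts, the sample-to-pool ratio before scaling should average about 1 over the ages. The deposited values were scaled, and the spots averaged below were picked by their age means. These averages are therefore a rough guide and do not settle the direction. Read as log2 of sample over pool, the ratio of the 73 spots averaged over ages had a median of 0.963, against 1.126 with the sign turned. For the spot with the largest last step, probe 1621, the same average was 0.962 as sample over pool and 2.98 with the sign turned. Over the 56 spots whose means varied most between ages, the medians were 0.918 and 1.489 with the sign turned. Read as natural logs, these medians were 1.004 and 1.884, so the average does not settle the base. Some arrays of different ages correlated below 0 across spots, down to -0.369, which ages on either side of a common pool can give. The log base is an assumption and the original scale before centring is unknown, so no fold changes are given. Before scaling, a transcript present only at E17 could reach a log2 ratio of at most 2 against a pool in which E17 supplied 4 of 16 parts. The deposited values were scaled, so this limit does not apply to them.

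Averaged over the 73 spots, the level at E10, E12, E14 and E17 was -0.56 ± 0.05, -0.52 ± 0.08, -0.30 ± 0.06 and 0.59 ± 0.04, in that order (SD of the array means, n = 4 arrays). The E17 arrays stood at 0.608, 0.644, 0.576 and 0.541, against -0.336, -0.232, -0.266 and -0.352 on the E14 arrays. Every E17 array was far above every earlier array in this average, and the arrays of E10 and E12 overlapped. The last step had a median of 0.588 and ran from 0.272 to 3.475. The middle step had a median of 0.213 and the first of 0.062, and both included falls. The mean was lower at E14 than at E12 for 13 spots and higher for 60, beside 44.3% higher among all spots. It was lower at E12 than at E10 for 30, beside 51.7% of all spots.

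The whole rise, E17 minus E10, ran from 0.602 to 3.328 with a median of 0.895. Of this rise the last step made up 65.4% at the median, with a range of 36.2 to 177.3%. A share above 100% belongs to spots that were lower at E14 than at E10. The last interval spans 3 days and the earlier ones 2 days each. Divided by days, the last step was still the steepest for 44 of the 73 spots and no longer for 29. The spots nearest the limit of 0.6 were much alike on either side of it: the rises just inside were 0.6017 and 0.6168, with last steps of 0.325 and 0.421, and those just outside were 0.5935 and 0.5901, with last steps of 0.319 and 0.62.

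**Figure D1:**
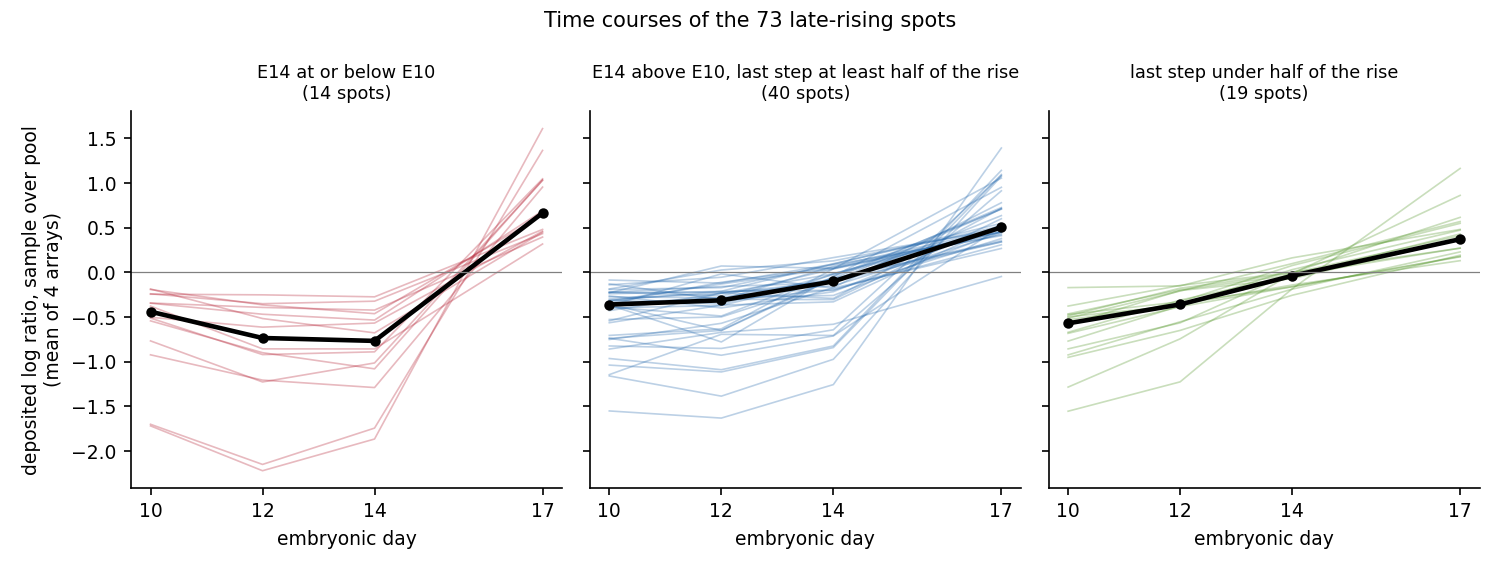
Mean log ratio of sample over reference pool (4 arrays per age) against embryonic day for each of the 73 late-rising spots, in 3 panels by the shape of the course, with the median of each panel in black. The 14 spots in the first panel were no higher at E14 than at E10, and in the 19 of the last panel the steps before E14 made up the larger part of the difference between E17 and E10.

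Fits across all 7103 spots with limma, with Benjamini-Hochberg adjustment, gave the size of these steps against the spread between replicates. Of the 73 spots, 41 were called higher at E17 than at E14 (adjusted p under 0.05), where 0.859% of all spots were called. The called spots had last steps of 0.421 to 3.475, and the 32 others 0.272 to 0.876. Leaving out 1 array at a time gave 31 to 44 calls, the fewest without E17 replicate 4. For E17 against E10, 69 were called higher, beside 6.65% of all spots, and the other 4 had rises of 0.641 to 0.858. In the spots ranked 32, 50 and 65 by last step, with rises of 0.858, 0.641 and 0.682, the E17 mean rested mostly on a single array. That array read 2.6, 1.218 and 1.954, while their other E17 arrays ran from -0.144 to 0.17, -0.261 to 0.14 and -0.232 to 0.16. A difference among any of the ages was called for 69 by limma's moderated F test, beside 12.7% of all spots. Since the rule used these contrasts, nothing is read from the counts. Every E17 array was above all 12 arrays of the other ages for 59 of the 73 spots, beside 1.8% of all spots.

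For the earlier steps limma made few calls. Between E12 and E10 it called 0 of the 73 spots in either direction, beside 0.296% called higher and 0.0985% called lower among all spots. At an unadjusted p under 0.05, 11 were higher and 8 lower at E12, beside 4.84% and 4.7% of all spots. Between E14 and E12 it called 2 higher and 0 lower, beside 0.69% and 0.0985% of all spots, and 28 higher and 0 lower at an unadjusted p under 0.05, beside 5.72% and 4.41%. A fit with a replicate block, which pairs E14 with E12 arrays, called 4. The count rests on single arrays: it was 10 without E14 replicate 1, and 1 without E12 replicate 3 or E14 replicate 3. Against E10, 21 spots were called higher at E14 and 3 lower, beside 4.59% and 3.39% of all spots. Of the 61 spots called higher at E17 than at E14 in all, 41 were among the 73, a number that the choice by the last step sets in large part. Another 11 had risen mostly between E12 and E14, 1 between E10 and E12, and 8 had a total rise under 0.6.

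**Figure D2:**
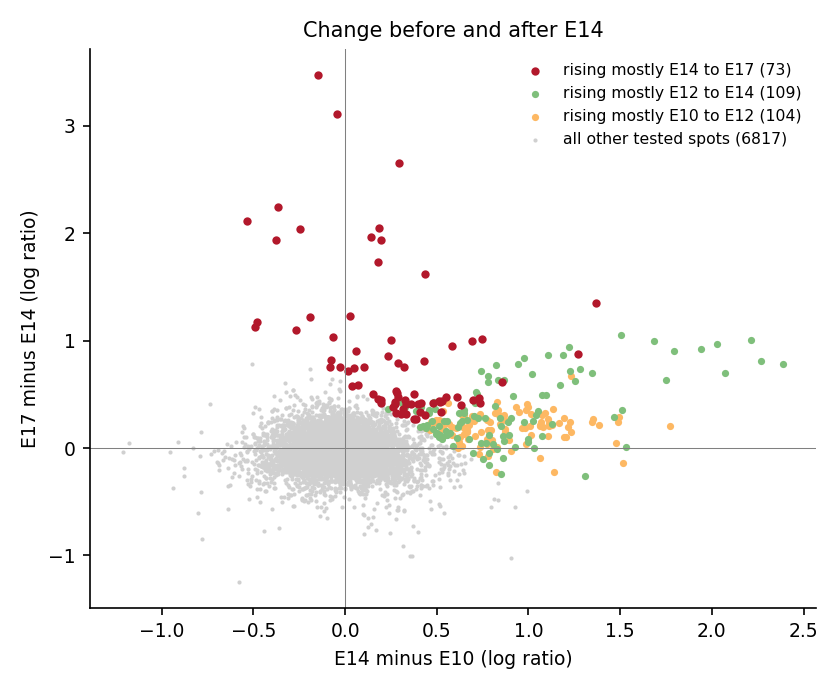
Difference of mean log ratios between E17 and E14 (vertical) against that between E14 and E10 (horizontal) for 7103 spots, with the 73 late-rising spots in dark red and the 109 and 104 spots that rose mostly in the middle and first step in green and orange. The 12 late-rising spots with the largest last steps lie between -0.537 and 0.438 on the horizontal axis, and 14 of the 73 lie at or left of 0.

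The spots with the 2 largest last steps were low through E14 and high on all 4 E17 arrays. Probe 1621 was at -1.786, -1.69, -1.62 and -1.775 on the E10 arrays and at -2.074, -2.302, -2.247 and -2.256 on the E12 arrays. It was at -1.582, -2.336, -1.2 and -2.341 at E14 and at 1.871, 1.655, 1.748 and 1.167 at E17. The E17 arrays did not overlap any earlier array, every E12 array was below every E10 array, and the E14 arrays were widely spread. Its mean was 1.61 ± 0.31 at E17, against -1.86 ± 0.57 at E14 (SD, n = 4), a difference of 3.48 (limma SE 0.20). Of the earlier steps, E12 minus E10 was -0.50 and E14 minus E12 was 0.36 (limma SE 0.20 for each). Since the choice used the means of all ages, no p-values are given for these steps. The SE comes from 1 variance shared by all ages, to which the wide spread at E14 adds. The SD was 0.08 at E10 and 0.10 at E12, so this SE is wide for the step between them.

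Probe 539 followed the same course. It was at -1.39, -1.893, -1.661 and -1.855 on the E10 arrays and at -2.219, -2.358, -2.057 and -1.962 on the E12 arrays. It was at -1.498, -1.854, -1.359 and -2.26 at E14 and at 1.442, 1.465, 1.514 and 1.043 at E17. As in probe 1621, every E12 array was below every E10 array, E14 replicates 1 and 3 were higher than replicates 2 and 4, and E17 replicate 4 was the lowest of its age. Its mean was 1.37 ± 0.22 at E17, against -1.74 ± 0.40 at E14 (SD, n = 4), a difference of 3.11 (limma SE 0.17). The 2 spots have no gene name here, and whether they carry the same transcript was not tested.

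**Figure D3:**
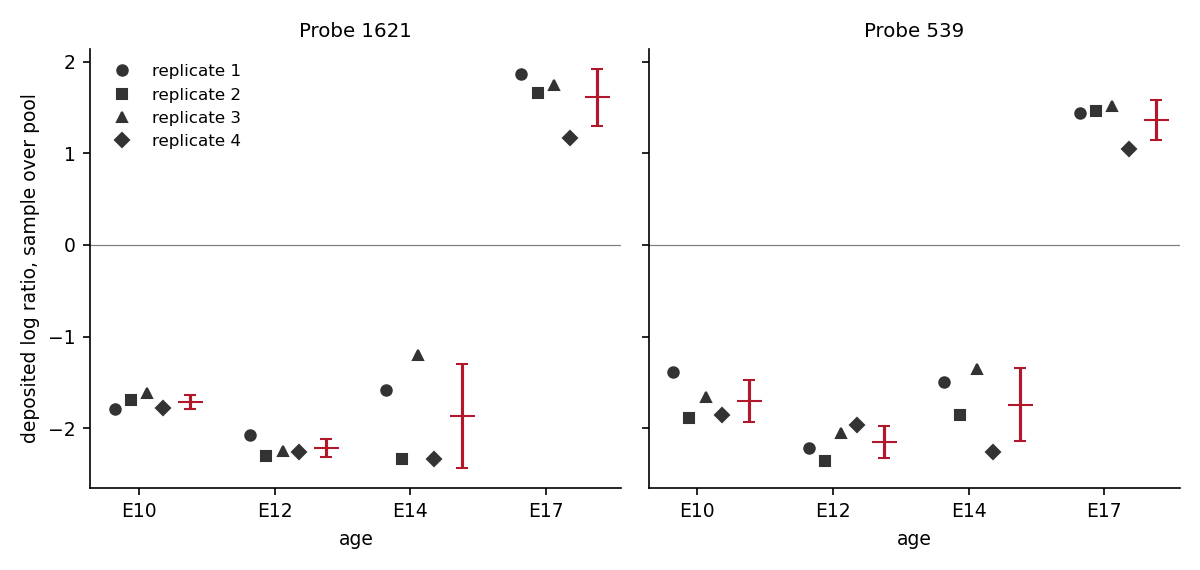
Log ratio of sample over reference pool on each of the 16 arrays (symbols by replicate number) for the 2 late-rising spots with the largest last steps, with the mean and SD of each age in red (n = 4). Both spots are below -1 on all E10, E12 and E14 arrays and above 1 on all E17 arrays, with E17 replicate 4 lowest.

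The 12 spots with the largest last steps are described together, a division made after the values were seen. It falls where the last step goes from 1.619 to 1.348, a wider distance than from there to the next rank, at 1.225. Wider distances lie within the 12, as from 3.109 at rank 2 to 2.649 at rank 3, so the cut is arbitrary. The last steps of the 12 ran from 1.619 to 3.475, the next largest was 1.348, and the median of the other 61 was 0.479. No other tested spot had a last step as large as theirs. In each of the 12, every E17 array was above all 12 earlier arrays, beside 1.8% of all spots. Picking the largest last steps largely sets this, so nothing is read from it. From E10 to E17 the common levels of the 12 spots were -1.07 ± 0.10, -1.28 ± 0.11, -1.09 ± 0.19 and 1.15 ± 0.22 (SD of array means, n = 4). The near-equal E10 and E14 levels average spots that went both ways: E14 minus E10 ran from -0.537 to 0.438. As deposited, 6 of the 12 were lower at E14, where 44.7% of all spots were higher. With quantile normalization, 11 of the 12 were lower. The means of the other 61 spots went up with each age, at -0.46 ± 0.04, -0.37 ± 0.07, -0.14 ± 0.07 and 0.48 ± 0.03 (SD of array means, n = 4).

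The 12 spots also shared a pattern among replicates of 1 age. E17 replicate 4 averaged 0.825 over them, against 1.286, 1.27 and 1.204 on E17 replicates 1, 2 and 3, and was the lowest E17 array for 11 of the 12. E14 replicate 4 was the lowest E14 array for 8 of the 12, at -1.35 against -0.936, -1.131 and -0.956 on replicates 1, 2 and 3, and for 10 of the other 61. E10 replicate 2 was also the lowest of its age for 8 of the 12, at -1.176 against -0.995, -0.972 and -1.136, and for 21 of the other 61. Over all 7103 spots, E17 replicate 4, E14 replicate 4 and E10 replicate 2 were the lowest of their age for 1654, 1477 and 1799. In the other 61 spots E17 replicate 4 was not set apart: it averaged 0.485, against 0.475, 0.521 and 0.453, and was the lowest for 15 of them. With quantile normalization between arrays, E17 replicate 4 remained the lowest for 10 of the 12, at 0.742 against 1.014, 0.997 and 1.065. Each E17 replicate came from 2 embryos, and whether pool, array or stage set this replicate apart was not tested.

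**Figure D4:**
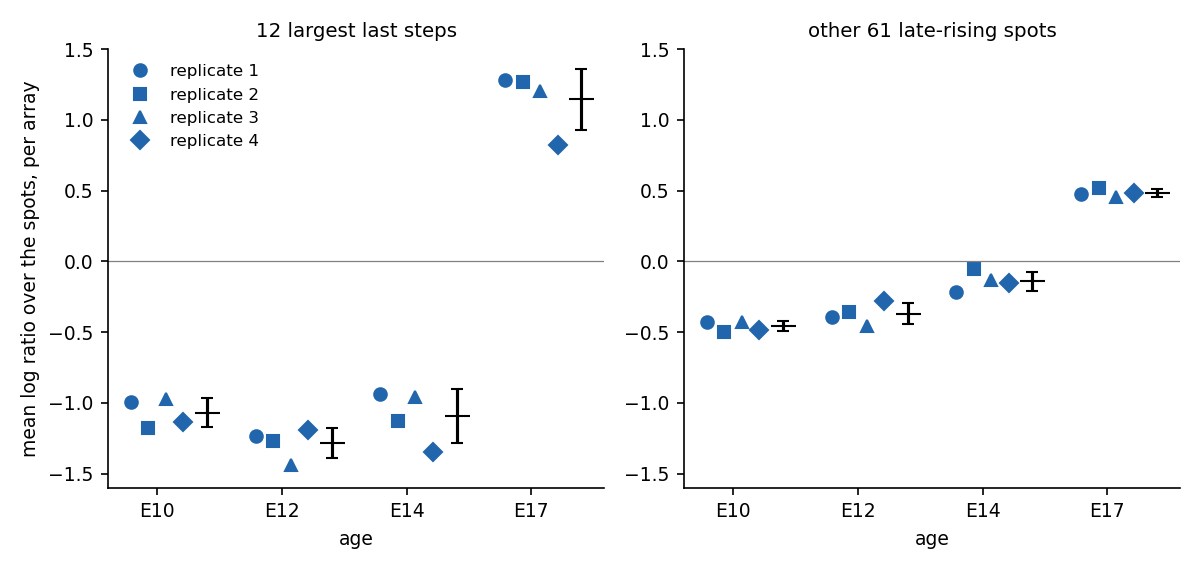
Mean log ratio over the 12 spots with the largest last steps (left) and over the other 61 late-rising spots (right) on each array, by age, with the mean and SD of the 4 arrays of each age in black. The means of the 12 spots lie between -1.436 and -0.936 through E14, and E17 replicate 4 lies below the other E17 arrays, while the means of the 61 spots go up in smaller steps and their E17 arrays lie between 0.453 and 0.521.

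Part of the set had lower means at E14 than at E10. The mean at E14 was at or below that at E10 for 14 of the 73 spots. It was above for the other 59, beside 44.7% of all spots. A lower E14 mean was thus less frequent in the set than among all spots, and the choice used both means. All 14 had every E17 array above all other arrays, beside 1.8% of all spots. In spots with E14 at or below E10 the rule sets a last step of at least 0.6, so this count is largely set by the choice. Their common levels were -0.61 ± 0.07, -0.89 ± 0.07, -0.86 ± 0.14 and 0.78 ± 0.18 from the youngest to the oldest age (SD of array means, n = 4). The first step of these 14 had a median of -0.307 and the middle step had a median of -0.012. Among the 12 spots with the largest last steps, 11 had a lower mean at E12 than at E10, beside 51.7% of all spots. In 5 of the 12 every E12 array was below every E10 array. Over all 73 spots, 8 had E12 arrays that lay wholly below the E10 arrays, beside 3.82% of all spots, and 4 (5.48%) had E14 arrays that did, beside 7.74%. The count of 14 depended on the scaling: it was 14 with array medians subtracted and 20 with quantile normalization.

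The decrease from E10 to E14 passed limma's threshold for 3 of the 73 spots (4.11%), a share near the 3.39% of all spots called lower, so it does not mark the set. These 3 are given as single cases, picked because they were called. The choice of the set also used the E10 and E14 means, so no p-values are given for them. The largest decrease was in the spot with the fifth largest last step. Its E10 arrays read -0.428, -0.71, -0.497 and -0.534, and its E12 arrays -0.762, -1.106, -1.073 and -0.652. Its E14 arrays read -0.984, -1.211, -1.067 and -1.055, and its E17 arrays 1.344, 0.868, 1.316 and 0.615. Its E14 arrays were all below its E10 arrays and its E17 arrays all above both. Its E14 mean was 0.54 lower than its E10 mean (difference -0.54, limma SE 0.15). Its E17 mean was 2.11 higher than its E14 mean (limma SE 0.15).

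The other spots in which E14 was called lower than E10 had smaller last steps. In the sixteenth by last step, the E14 arrays were at -0.862, -0.741, -1.02 and -0.802, against -0.194, -0.41, -0.474 and -0.428 at E10, a difference of -0.48 (limma SE 0.11). In the seventeenth, they were at -0.988, -0.743, -0.556 and -0.419, against -0.367, -0.206, 0.042 and -0.21, a difference of -0.49 (limma SE 0.14). In both, no E14 array reached the level of an E10 array, and the E17 means were 0.319 and 0.451.

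In the other 59 spots the mean at E14 was above that at E10, a difference that limma called for 21. For 40 of them the last step made up most of the rise, with common levels of -0.48 ± 0.05, -0.45 ± 0.08, -0.22 ± 0.05 and 0.61 ± 0.07 at E10, E12, E14 and E17 (SD of array means, n = 4). Limma called 5 of these 40 higher at E14 than at E10, beside 4.59% of all spots. For the remaining 19 the earlier steps together exceeded the last, with -0.68 ± 0.03, -0.40 ± 0.09, -0.05 ± 0.13 and 0.43 ± 0.07. Of these 19, limma called 2 higher at E17 than at E14 and 16 higher at E14 than at E10, beside 0.859% and 4.59% of all spots. The division by the share of the last step largely sets these counts, so nothing is read from them. In these 19 the label of a mainly late rise does not describe the course, since most of the rise came before E14. Their courses differed, with first steps of 0.019 to 0.54. The smallest lead of the last step over the next largest was 0.004, in a spot with a first step of 0.019. Its E10 arrays read -0.155, -0.243, -0.113 and -0.169, and its E12 arrays -0.029, -0.306, -0.073 and -0.195. Its E14 arrays read -0.113, 0.358, 0.267 and 0.142, and its E17 arrays 0.548, 0.359, 0.542 and 0.478. E14 replicate 1 lay with the E12 arrays and the other E14 arrays between those and E17.

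The smallest rise in the set was 0.602 (limma SE 0.11). The E10 arrays of that spot read -0.223, -0.252, -0.174 and -0.112, and its E12 arrays 0.173, -0.358, -0.23 and -0.267. Its E14 arrays read -0.056, 0.228, 0.122 and 0.051, and its E17 arrays 0.512, 0.321, 0.495 and 0.318. Its E17 arrays were above all earlier ones, and E12 replicate 1 stood above the rest of its age.

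On 4 arrays, E12 and E14 replicates 3 and 4, between 39 and 45 of the first 45 spots of the table were blank, against at most 1 on the other 12 arrays. They may form a batch, so both sides were read separately. Measured against E14 replicates 3 and 4 only, the last step had a median of 0.604 and was positive for 72 of the 73 spots. Against E14 replicates 1 and 2 only, it had a median of 0.677 and was positive for 73. With all 4 E14 arrays it was positive for 49.0% of all spots. The choice used these same E14 and E17 arrays, which largely sets both counts, so nothing is read from them. The spot with the widest spread at E14 was the exception, against E14 replicates 3 and 4. At E12 it was at -1.113 and -1.331 on replicates 1 and 2 and at -0.25 and 0.011 on replicates 3 and 4. At E14 it was at -1.051 and -1.248 on replicates 1 and 2 and at 0.058 and -0.08 on replicates 3 and 4. At both ages replicates 3 and 4 were above replicates 1 and 2. No E17 array had the blank block, and the E17 arrays read -0.608, 0.237, -0.072 and 0.26. The E17 mean was 1.10 above E14 replicates 1 and 2 and -0.03 from E14 replicates 3 and 4, so the size of the last step of this spot depends on which E14 arrays are taken. The part of the batch in it was not tested. In 3 of the 73 spots the 4 arrays with the blank block all lay on one side of the other E12 and E14 arrays, as in 2.87% of all spots.

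The same measure was then read in arrays that had not served to choose the spots. The rule was applied to 12 arrays, with 1 replicate number left out at every age, and the chosen spots were read in the 4 arrays left out. With replicate 1 left out, 70 spots were chosen and 61 of them (87.1%) were higher on the E17 than on the E14 array left out, beside 46.0% of all spots. With replicate 2 left out, 86 of 92 (93.5%) were higher, beside 49.9% of all spots. With replicate 3 left out, 82 of 87 (94.3%) were higher, beside 50.8%. With replicate 4 left out, 72 of 83 (86.7%) were higher, beside 48.2%. The median differences in the arrays left out were 0.524, 0.442, 0.496 and 0.556, against medians of -0.02 to 0.004 over all spots. With 1 array per age left out there is no test of these values.

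That the last step was the largest of the 3 held less often in the arrays left out. It was the largest for 51 of 70 spots with replicate 1, 40 of 92 with replicate 2, 45 of 87 with replicate 3 and 53 of 82 with replicate 4, beside 31.2 to 35.9% of all spots. The choice itself also moved with the arrays. Of the 73 spots, 39 were chosen whichever replicate number was left out, among them all 12 with the largest last steps, and 34 were lost at least once. Another 67 spots outside the 73 were chosen at least once.

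**Figure D5:**
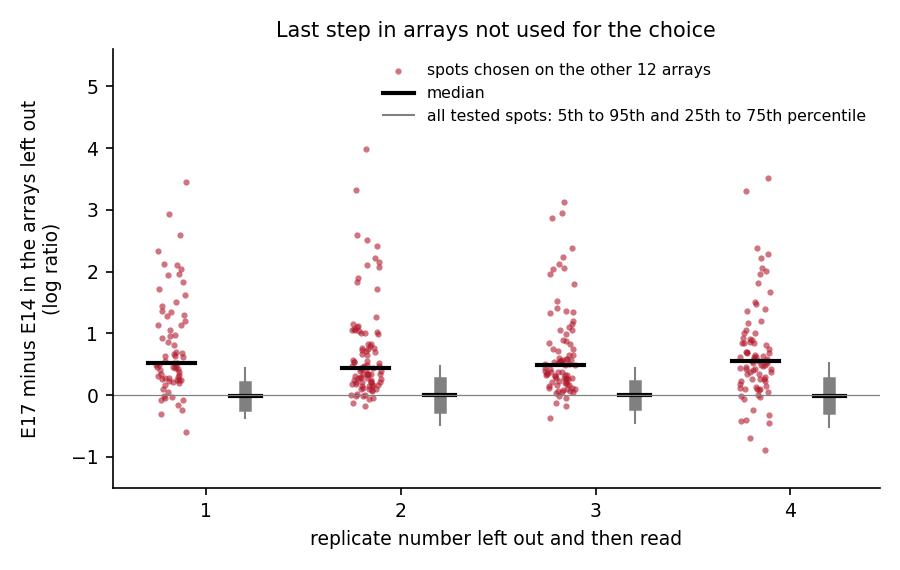
Difference between the E17 and the E14 array left out (log ratio) for spots chosen on the other 12 arrays (red points, median in black), beside the range of all tested spots (grey), for each replicate number left out. The medians of the chosen spots lie between 0.442 and 0.556, and those of all spots between -0.02 and 0.004.

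The spread between replicates of the late-rising spots was as wide at E17 as at the middle ages. Pools held fewer embryos at each later age, from 16 at E10 to 2 at E17. Age and pool size therefore cannot be told apart in this spread, and the choice of the spots used the E17 means. From E10 to E17 the SD over 4 arrays had medians of 0.111, 0.191, 0.197 and 0.203, against 0.113, 0.165, 0.186 and 0.136 over all tested spots. In the 109 spots that rose mostly between E12 and E14 the order was another, with a median SD of 0.291 at E14 and 0.139 at E17. In those 109 spots E14 replicate 1 averaged -0.278, while replicates 2, 3 and 4 averaged 0.224 to 0.31, which made it the lowest of its age for 89. It was also the lowest for 83 of the 104 spots that rose mostly between E10 and E12, and for 1907 of all 7103. In the 73 late-rising spots it averaged -0.336, between the other E14 arrays at -0.352 to -0.232, and was the lowest for 28. This average joins 2 parts. In the 12 spots with the largest last steps E14 replicate 1 was the highest E14 array, at -0.936, and the lowest for 0. In the other 61 it was the lowest, at -0.218 against -0.055, -0.13 and -0.152, and the lowest for 28. The difference between the sets was not tested.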

How the data were processed

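Pituitary RNA of 16 pools of chicken embryos was measured on 16 two-colour arrays, 4 per age. The values are the authors' deposited log ratios, read as log2 of sample over pool; how they made them from the scans (background correction, normalization, filters) is not given in the sources used here. Scanner intensities were not analysed here.

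Spots with 3 or more values at every age were kept (7103; 97 left out). Differences were fitted with limma 3.58.1 in R 4.3.3 on all 16 arrays, with 1 mean per age and 1 residual variance per spot over all ages, and adjusted over 7103 spots. Deviations of same-numbered E14 and E12 arrays correlated at 0.148 to 0.437, each over 0.1, so that comparison is also given with the replicate block. The numbers did not meet this limit in the other comparisons. In simulated data with the measured spread of each age, the E17 against E14 test recovered 69% of changes of 0.5 and 91% of changes of 1. Of its calls 17.9% were false, more than the adjusted threshold of 0.05 allows for. The simulation took the SD over 4 arrays as the true spread of each spot and drew spots independently. Its rates therefore need not hold for the real calls, whose share of false calls was not tested. With 4 arrays per age, E17 minus E14 had a standard error of 0.12 at the median over all spots.

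The spots, gene lists and tests were chosen with earlier results of these data known. The gene lists could not be used because no spot among the 73 has a name, so IDs are given for the 2 largest last steps only and other spots are placed by rank. Alternatives covered scaling, missing values, array weights, moderation, the replicate block, fits of 2 ages and arrays left out.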

Additional observations from a re-analysis of the deposited data

Results flagged for a closer look

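The replicate values of the described spots and averages were examined in 35 sets of 4, and 1 set held a value that stood well away from the rest, against about 1.8 that chance would give (1 in 20). This was E17 replicate 4 of probe 539, which read 1.043 while replicates 1, 2 and 3 read 1.442 to 1.514. The spots ranked 32, 50 and 65 by last step were not among these sets. The E14 averages of the 109 spots that rose mostly between E12 and E14 were not flagged here either. There too replicate 1 stood apart, at -0.278 against 0.224 to 0.31 on the other replicates.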

How the results depend on the processing

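With the spots fixed, the counts of 41 (E17 against E14), 69 (E17 against E10) and 69 (any age) stayed within 1.5 times under every alternative run, at 30 to 49, 68 to 71 and 68 to 70, and at 31 to 44, 69 to 70 and 68 to 69 with 1 array left out. For E14 against E12 (2), quantile normalization gave 7, the replicate block 4, a fit of these ages alone 0 and leaving out the blank-block arrays 0; with 1 array left out it was 1 to 10. For E12 against E10 (0), array weights gave 1 and a fit of these ages alone 1. With the replicate block the other counts were 49 (E17 against E14), 71 (E17 against E10), 0 (E12 against E10) and 69 (any age); of the E17 arrays, 3 of 4 correlated best with the E14 array of the same number. The number of spots that met the rule, 73, was 44 per day of interval, 61 to 95 with 1 array left out and 70 to 99 otherwise, the last without the blank-block arrays (63 shared). The share higher at E17 in arrays left out was 90.7%, or 301 of 332 readings pooled over the 4 replicate numbers, beside 46.0 to 50.8% of all spots. The same spots recur in this pool, since 39 of the 73 were chosen each time. Under other scalings and with 4 values required, the pooled share was 91.0 to 91.3%. The last steps of probes 1621 and 539 were 3.471 to 3.57 and 2.975 to 3.175 under the alternatives, and 3.316 to 3.697 and 2.936 to 3.237 with 1 array left out. Their rises from E10 to E17 were 2.953 to 3.348 and 2.524 to 3.086 under the alternatives. The blank-block alternatives were chosen after seeing the data. Where counts moved, the cause was not tested, beyond fewer arrays in some fits. Scaled log ratios without intensities limit what can be said of low signals.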

Other observations

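The late-rising spots were not spread evenly over the table. Of the 73, 52 (71.2%) were in its first 3600 rows, which hold 49.4% of all tested spots, and so were 11 of the 12 with the largest last steps. The same holds for the spots that rose mostly between E12 and E14 (79.8%) or between E10 and E12 (69.2%), and for the 162 that fell by 0.6 or more between E10 and E17 (61.7%). No 2 of the 73 stood next to each other. How table rows map to positions on the slide or to clone collections is not given in the sources used here.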
